A study of Mus musculus with 20 samples.

Results

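Wnt proteins are secreted signals that act through Frizzled receptors and their LRP coreceptors, and in the mammary gland they are known for maintaining basal stem cells. Secreted antagonists limit that signal outside the cell. The SFRP proteins and FRZB carry a cysteine-rich domain like that of Frizzled and bind Wnt ligands, as does the unrelated WIF1, whereas DKK family members such as DKK2 bind the LRP coreceptors and can engage Kremen receptors. The genes described here are 8 of these antagonists, Sfrp1, Sfrp2, Sfrp4, Sfrp5, Frzb, Wif1, Dkk2 and Dkk3, chosen by gene symbol from the 46603 genes of the deposited count table. All 8 were found there, each in a single row, and all 8 passed the filter on low counts that left 17236 genes for testing.

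RNA came from the fourth inguinal mammary glands of 5 virgin FVB/N female mice, aged 6 to 8 weeks and numbered 2 to 6, with no genotype or treatment other than the strain named in the labels. After depletion of lineage-positive cells, 1000 cells per library were sorted into 4 populations of 5 libraries each. Mammary repopulating units (MRU) were gated as CD24-medium and CD49f-high, which enriches for basal cells. The CD200+CD200R1+ MRU, called double-positive MRU from here on, carried the membrane glycoprotein CD200 and its receptor CD200R1, and the remaining MRU lay outside that double-positive gate. Outside the MRU gate, CD200+ non-MRU were positive for CD200 and negative for CD200R1, and CD200R1+ non-MRU had the opposite pattern. About 10% of the cells in the CD200R1+ non-MRU library of mouse 4 came from mouse 3, per the labels. Between 10853587 and 13862963 counts were assigned per library, and 3 counts therefore equalled 0.209 to 0.327 CPM, the TMM-scaled unit of all levels given here.

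All libraries were labelled as epithelial cells, and this was compared with marker genes. The 7 basal markers summed to 11787 to 22083 CPM in double-positive MRU and 10291 to 16780 in remaining MRU, against 291 to 948 for CD200+ cells and 32.6 to 159.7 for CD200R1+ cells outside the MRU gate. The 7 luminal markers were highest in CD200+ non-MRU, at 10956 to 19899 CPM, and summed to only 16.8 to 86.5 in CD200R1+ non-MRU. In the 10 MRU libraries they summed to 2045 to 4508 CPM. The 5 macrophage markers summed to 953 to 1925 CPM in double-positive MRU and 464 to 799 in remaining MRU. Outside the gate they summed to 345 to 1352 for CD200R1+ cells and 19.2 to 49.8 for CD200+ cells. The 5 lymphocyte markers were highest in CD200+ non-MRU, at 1257 to 2431 CPM, against 119 to 526 in the other populations. The 8 fibroblast markers summed to 51196 to 74700 CPM in CD200R1+ non-MRU, 6249 to 15600 in CD200+ non-MRU and 684 to 1383 in the 10 MRU libraries. The label of epithelial cell therefore went against the data in CD200R1+ non-MRU, where Krt14 and Krt8 stood at 0.744 ± 0.594 and 5.93 ± 7.92 CPM (SD, n = 5). In these bulk pools, fewer cells of a type and less RNA per cell cannot be told apart.

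The 8 antagonists fell into different patterns over the 4 populations. Wif1 and Sfrp5 were highest in both MRU populations. Dkk3 was highest in double-positive MRU and lowest in CD200+ non-MRU. Sfrp1, Sfrp2 and Frzb were highest in CD200R1+ non-MRU, while Sfrp4 was high in both non-MRU populations. Dkk2 was measured in 3 populations and lay near 0 in the double-positive MRU. Over 6 comparisons, in which 8.26% to 52.5% of all genes were called, 34 of 48 differences fell below an adjusted p of 0.05 in edgeR's quasi-likelihood test.

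**Figure D1:**
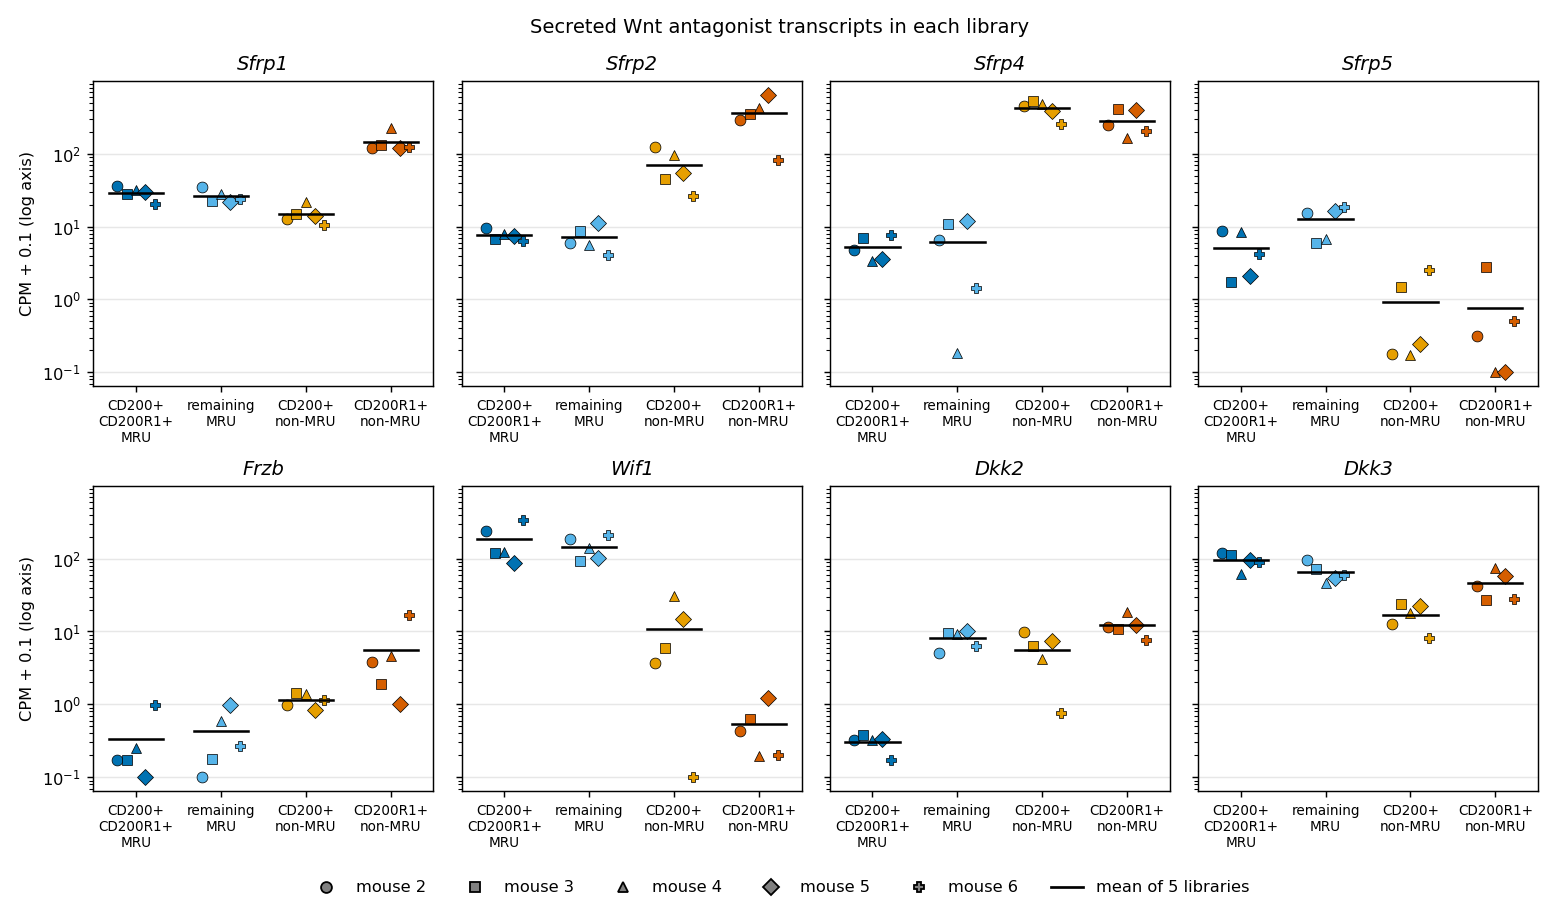
Levels of the 8 antagonist transcripts in CPM plus 0.1 on a log axis, 1 point per library, with the symbol giving the mouse and the line the mean of 5 libraries. Wif1 lies between 88.0 and 343 CPM in all 10 MRU libraries and at 30.3 or below in all 10 non-MRU libraries, and Dkk2 is at 0.281 CPM or below in the double-positive MRU.

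Wif1 (ENSMUSG00000020218, GRCm38 chromosome 10, 121033960 to 121100650, plus strand) encodes Wnt inhibitory factor 1. In double-positive MRU it stood at 241 CPM in mouse 2, 119 in mouse 3, 123 in mouse 4, 88.0 in mouse 5 and 343 in mouse 6. In remaining MRU it stood at 187, 91.9, 138, 102 and 211 CPM in the same order of mice. The libraries of these populations overlapped, and both had their highest value in mouse 6. In CD200+ non-MRU the same mice had 3.63, 5.79, 30.3, 14.6 and 0 CPM, a count of 0 that allows up to 3 counts. In CD200R1+ non-MRU they had 0.327, 0.523, 0.0932, 1.11 and 0.102 CPM, from 1 to 11 counts. None of the 10 MRU libraries overlapped any of the 10 non-MRU libraries.

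The fold between double-positive MRU and CD200R1+ non-MRU was 418 (log2 fold change 8.71, SE 0.95, adjusted p = 1.19e-07). Remaining MRU were 334-fold above CD200R1+ non-MRU (log2 8.38, SE 0.94, adjusted p = 2.18e-07). Against CD200+ non-MRU, Wif1 was 16.8-fold higher in double-positive MRU (log2 4.07, SE 0.68, adjusted p = 4.71e-05) and 13.4-fold higher in remaining MRU (log2 3.74, SE 0.67, adjusted p = 0.00011). CD200+ non-MRU were in turn 24.9-fold above CD200R1+ non-MRU (log2 4.64, SE 0.94, adjusted p = 0.000285). Within the MRU gate the log2 fold change was 0.33 (SE 0.59, adjusted p = 0.835), which leaves those neighbours in the order of levels unresolved. The CD200+ non-MRU library of mouse 4 carried much of that population's level: without it the 3 log2 fold changes that involve CD200+ non-MRU were 4.97, 4.63 and 3.79. Without the CD200R1+ non-MRU library of mouse 5, those against CD200R1+ non-MRU were 9.43, 9.10 and 5.36.

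Basal markers were compared with Wif1 in CD200+ non-MRU. The library of mouse 4, highest in Wif1, had the highest basal marker sum (948 CPM), and that of mouse 6, with no Wif1 count, had the lowest (291 CPM). The libraries between them did not keep that order, since mouse 3 had 908 CPM of basal markers with Wif1 at 5.79, and mouse 5 had 645 with Wif1 at 14.6. As a percentage of the basal marker sum, Wif1 ran from 0.629 to 2.02 in double-positive MRU and from 0.712 to 1.90 in remaining MRU. Outside the gate it ran from 0 to 3.20 for CD200+ cells and from 0.0664 to 2.49 for CD200R1+ cells, so all 4 ranges overlapped. The part of basal cells in the non-MRU levels was not tested. The genes whose profile over the 20 libraries lay nearest to that of Wif1 were Moxd1, Trim29 and the Notch ligand gene Dll1, at root mean square differences of 0.59, 0.81 and 0.85 in centred log2 CPM. Moxd1 stood at 115 CPM in double-positive MRU and 0.211 in CD200R1+ non-MRU.

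Promoter sequences are shown for 4 genes that differed in pattern: Wif1 and Sfrp5, which were higher in both MRU populations than in either non-MRU population, Sfrp2, which was lower in both, and Dkk2, which was called within the MRU gate. Each is the 250 bases before the transcription start in RefSeq's GRCm38.p6 table, which held 5 of the 8 genes. For Wif1 that window ends at 121034003, past the gene start of 121033960 in GENCODE M21. Its last bases therefore lie inside the GENCODE gene, and positions given for Wif1 count from the RefSeq start. Capitals mark a TATA box (TATAAA) or a GC box (GGGCGG), read on both strands.
Wif1, chr10:121033754-121034003, plus strand: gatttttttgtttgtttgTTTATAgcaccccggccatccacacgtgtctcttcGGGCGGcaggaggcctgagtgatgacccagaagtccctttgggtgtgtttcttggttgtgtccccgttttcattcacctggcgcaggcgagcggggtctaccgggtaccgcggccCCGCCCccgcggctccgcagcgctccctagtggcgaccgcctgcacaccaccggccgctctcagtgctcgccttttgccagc
Sfrp5, chr19:42202253-42202502, minus strand: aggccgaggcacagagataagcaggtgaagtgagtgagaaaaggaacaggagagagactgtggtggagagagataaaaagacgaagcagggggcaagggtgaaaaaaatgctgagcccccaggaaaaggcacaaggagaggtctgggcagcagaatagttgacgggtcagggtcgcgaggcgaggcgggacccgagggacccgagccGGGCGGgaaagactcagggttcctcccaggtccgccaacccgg
Sfrp2, chr3:83766071-83766320, plus strand: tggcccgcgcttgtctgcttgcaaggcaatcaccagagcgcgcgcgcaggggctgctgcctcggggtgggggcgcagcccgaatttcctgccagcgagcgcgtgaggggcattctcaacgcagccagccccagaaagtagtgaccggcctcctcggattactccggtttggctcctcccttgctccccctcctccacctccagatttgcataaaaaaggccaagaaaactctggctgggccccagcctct
Dkk2, chr3:132085042-132085291, plus strand: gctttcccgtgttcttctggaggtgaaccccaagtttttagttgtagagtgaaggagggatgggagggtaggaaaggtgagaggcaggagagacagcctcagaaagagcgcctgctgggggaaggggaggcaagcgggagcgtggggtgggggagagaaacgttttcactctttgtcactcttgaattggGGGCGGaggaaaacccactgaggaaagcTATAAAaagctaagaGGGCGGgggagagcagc

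The Dkk2 promoter held TATAAA at positions -32 to -27 from the start and GGGCGG at -60 to -55 and -17 to -12. The Wif1 promoter had GGGCGG at -197 to -192 and, on the other strand, at -82 to -77, and TATAAA on the other strand at -232 to -227. Sfrp5 had GGGCGG at -43 to -38, and Sfrp2 had neither motif. Over all 32851 promoters of the table, 32.7% held GGGCGG and 12.4% TATAAA in the same window. The TCF/LEF core sequences CTTTGAT and CTTTGAA, present in 3.21% and 4.46% of all promoters, were in none of the 5 windows. CpG dinucleotides numbered 21 in the Wif1 window, 16 in that of Sfrp2, 13 in that of Sfrp5 and 7 in that of Dkk2.

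Sfrp5 (ENSMUSG00000018822, chromosome 19, 42197971 to 42202252, minus strand), a close relative of Sfrp1, had the same order between gates as Wif1 but a far lower level. It stood at 15.2, 5.85, 6.61, 16.3 and 18.7 CPM in remaining MRU of mice 2 to 6 and at 8.61, 1.62, 8.23, 1.99 and 4.08 CPM in double-positive MRU. The remaining MRU library was the higher in 4 of 5 mice, and the libraries overlapped (log2 fold change -1.35 for double-positive MRU, SE 0.79, adjusted p = 0.374). In both non-MRU populations it lay between 0 and 2.72 CPM, with a log2 difference of 0.31 between them (SE 0.97, adjusted p = 0.805) that ran from -0.59 without CD200+ non-MRU of mouse 6 to 2.36 without CD200R1+ non-MRU of mouse 3. Remaining MRU exceeded CD200+ non-MRU by 3.91 on the log2 scale (SE 0.90, adjusted p = 0.00127) and were 18.7-fold above CD200R1+ non-MRU (log2 SE 0.94, adjusted p = 0.00084). For double-positive MRU the folds were 5.89 (log2 SE 0.87, adjusted p = 0.0195) and 7.32 (log2 SE 0.92, adjusted p = 0.0133). Single libraries set the non-MRU level: without CD200R1+ non-MRU of mouse 3, which held 26 of that population's 32 counts, the log2 fold changes rose from 4.23 to 6.27 and from 2.87 to 4.92. Without CD200+ non-MRU of mouse 6, those against CD200+ non-MRU rose from 3.91 to 4.86 and from 2.56 to 3.52. Its nearest profile was that of Afap1l1, at a root mean square difference of 0.70, followed by Npr3 (0.87) and Ppp1r14a (0.99).

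Dkk2 (ENSMUSG00000028031, chromosome 3, 132085292 to 132180304, plus strand), a ligand of LRP6 known to inhibit or weakly activate Wnt signalling by context, was the only member called between the MRU populations. Counts in double-positive MRU were 3, 4, 3, 3 and 1 in mice 2 to 6, or 0.0729 to 0.281 CPM. In remaining MRU it stood at 4.93, 9.37, 9.25, 10.1 and 6.27 CPM, from 62 to 136 counts. The remaining MRU libraries were all above the double-positive ones, 36.8-fold (log2 fold change -5.20 for double-positive MRU, SE 0.55, adjusted p = 1.15e-06). CD200+ non-MRU had 9.62, 6.14, 4.14, 7.21 and 0.652 CPM and CD200R1+ non-MRU 11.6, 10.7, 18.2, 12.1 and 7.52 CPM, so all 15 libraries of the other 3 populations exceeded the double-positive MRU.

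double-positive MRU were 25.6-fold below CD200+ non-MRU in Dkk2 (log2 SE 0.55, adjusted p = 6.32e-07) and 55.3-fold below CD200R1+ non-MRU (log2 SE 0.56, adjusted p = 2.02e-08). Remaining MRU were not separated from CD200+ non-MRU (log2 0.52, SE 0.41, adjusted p = 0.326) or from CD200R1+ non-MRU (log2 -0.59, SE 0.41, adjusted p = 0.263). Between the non-MRU populations Dkk2 was 2.16-fold lower in CD200+ cells (log2 -1.11, SE 0.41, adjusted p = 0.0295). That call did not hold without CD200+ non-MRU of mouse 4 (log2 -1.02, adjusted p = 0.0632), without CD200R1+ non-MRU of mouse 4 (-0.91, 0.0866), with the 10 non-MRU libraries alone (-1.04, 0.1) or with library totals alone (-0.70, 0.158), and its adjusted p ran from 0.0102 to 0.158 over all alternatives.

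Vascular and adipocyte marker sums had the direction of Dkk2 inside the MRU gate. The 6 endothelial markers, among them Pecam1 and Cdh5, summed to 33.8 to 132 CPM in double-positive MRU and to 1188 to 1624 in remaining MRU, and all 6 were lower in the former. The 6 pericyte markers summed to 37.7 to 81.8 against 492 to 707 CPM, with 5 of 6 lower. The 5 adipocyte markers summed to 2.74 to 16.2 against 40.6 to 141.6 CPM, with 2 of 5 lower. None of the 8 fibroblast markers was called within the gate, and 3 of the 5 macrophage markers were higher in double-positive MRU. Over all genes, 6.64% were lower and 1.62% higher. Outside the gate, endothelial sums were 88.2 to 160.4 CPM for CD200+ non-MRU but 24.7 to 118 for CD200R1+ non-MRU, where Dkk2 was highest on average. Pericyte sums had the same direction as Dkk2 there, at 70.3 to 82.1 CPM for CD200+ cells and 176 to 376 for CD200R1+ cells, without overlap. The single markers did not share it: 2 of the 6 were lower in CD200+ cells, 1 was higher and 3 were not called. Over all genes, 28.6% were lower and 23.8% higher. The median log2 fold change of the 6 was 0.224. Adipocyte sums were 0.0816 to 2.52 CPM for CD200+ cells and 3.63 to 92.2 for CD200R1+ cells, with 2 of 5 markers lower in CD200+ cells. All 8 fibroblast markers were lower in CD200+ than in CD200R1+ non-MRU. The part of vascular cells, adipocytes or fibroblasts in the Dkk2 differences was not tested. The nearest profiles were those of Fbln5, encoding an elastic-fibre protein (root mean square difference 0.64), the receptor-modifying gene Ramp2 (0.66) and Fhl1 (0.71). Fbln5 stood at 19.8 CPM in double-positive MRU and 365 in remaining MRU.

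Sfrp4 (ENSMUSG00000021319, chromosome 13, 19623104 to 19632994, plus strand) had the highest CPM of the 8 in CD200+ non-MRU. It stood there at 453, 528, 485, 383 and 255 CPM in mice 2 to 6, and in CD200R1+ non-MRU at 249.8, 403, 165, 393 and 207 CPM. These ranges overlapped, although CD200+ non-MRU was the higher in 4 of 5 mice (log2 fold change 0.57, SE 0.48, adjusted p = 0.332). In double-positive MRU it lay between 3.24 and 7.58 CPM, and in remaining MRU between 0.0826, a single count in mouse 4, and 11.8. CD200+ non-MRU were 80.7-fold above double-positive MRU (log2 SE 0.61, adjusted p = 4.44e-08) and 69.1-fold above remaining MRU (log2 SE 0.61, adjusted p = 6.8e-08). CD200R1+ non-MRU were 54.4-fold (adjusted p = 6.11e-08) and 46.6-fold (adjusted p = 1.03e-07) above the same populations.

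Sfrp2 (ENSMUSG00000027996, chromosome 3, 83766321 to 83774316, plus strand) differed between the non-MRU populations. In CD200R1+ non-MRU it stood at 287, 348, 425, 639 and 81.3 CPM in mice 2 to 6, and in CD200+ non-MRU at 123, 44.5, 97.2, 54.3 and 25.8 CPM. CD200R1+ non-MRU was the higher in all 5 mice, 5.16-fold (log2 SE 0.42, adjusted p = 7.29e-05), although mouse 6 of that population lay below mice 2 and 4 of the other. The MRU populations overlapped, at 6.19 to 9.43 and 3.93 to 11.1 CPM (log2 fold change 0.09, SE 0.44, adjusted p = 0.954). CD200R1+ non-MRU exceeded them 47.7-fold (adjusted p = 5.55e-09) and 50.6-fold (adjusted p = 5.34e-09), and CD200+ non-MRU exceeded them 9.24-fold (adjusted p = 6.09e-06) and 9.82-fold (adjusted p = 5.11e-06). An antisense gene, Gm26771, shares 347 exon bases with Sfrp2 in GENCODE M21, and without a stated strand setting their reads cannot be told apart.

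Per kilobase of exon, Sfrp4 exceeded Sfrp2 in all 5 CD200+ non-MRU libraries, whereas Sfrp2 exceeded Sfrp4 in 4 of 5 CD200R1+ non-MRU libraries. In CPM, Sfrp4 was the higher in CD200R1+ non-MRU of mouse 3 (403 against 348) and of mouse 6 (207 against 81.3). The ratio of Sfrp4 to Sfrp2 per kilobase was 1.89, 6.11, 2.57, 3.64 and 5.09 in CD200+ non-MRU of mice 2 to 6. It was 0.449, 0.597, 0.2, 0.317 and 1.31 in CD200R1+ non-MRU, with no overlap, a ratio chosen after its values were seen and not tested. Fibroblast markers differed in the same comparison, all 8 being lower in CD200+ non-MRU. Of all genes tested, 28.6% were lower there. Relative to the summed fibroblast markers, Sfrp4 stood at 2.91 to 4.07% in CD200+ cells outside the gate and 0.263 to 0.604% in CD200R1+ non-MRU, without overlap. The corresponding Sfrp2 percentages, 0.299 to 0.929 and 0.115 to 0.856, overlapped. The nearest profiles to Sfrp2 were C1qtnf2 (root mean square difference 0.59), Tnxb (0.63) and the fibroblast marker Pdgfra (0.64), and those nearest to Sfrp4 were Pcolce2 (0.66), Ifi205 (0.72) and the matrix proteoglycan gene Ogn (0.82).

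Sfrp1 (ENSMUSG00000031548, chromosome 8, 23411502 to 23449632, plus strand) was present in every library. It stood at 118, 129.6, 228, 119.8 and 124 CPM in CD200R1+ non-MRU of mice 2 to 6. Levels were 36.1, 28.0, 31.4, 29.5 and 20.3 CPM in double-positive MRU and 35.1, 22.3, 27.4, 21.8 and 23.6 CPM in remaining MRU. CD200+ non-MRU had the lowest, at 12.6, 14.9, 21.8, 13.97 and 10.4 CPM, where only mouse 4 reached into the range of the double-positive MRU. CD200R1+ non-MRU exceeded all other libraries, 9.76-fold against CD200+ non-MRU (log2 SE 0.23, adjusted p = 2.05e-10), 4.95-fold against double-positive MRU (log2 SE 0.22, adjusted p = 1.6e-08) and 5.52-fold against remaining MRU (log2 SE 0.22, adjusted p = 7.11e-09). The MRU populations were 1.97-fold (adjusted p = 0.000809) and 1.77-fold (adjusted p = 0.00382) above CD200+ non-MRU, and their own log2 difference was 0.16 (SE 0.21, adjusted p = 0.767). Relative to the fibroblast marker sum, Sfrp1 stood at 2.06 to 3.24% in double-positive MRU and 1.91 to 4.01% in remaining MRU, against 0.0950 to 0.167% in CD200+ cells outside the gate and 0.16 to 0.364% in CD200R1+ non-MRU. Its nearest profiles were those of Fkbp10 (root mean square difference 0.29) and P3h1 (0.31), which act in collagen folding and modification, and of RP24-231P10.2 (0.30).

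Frzb (ENSMUSG00000027004, chromosome 2, 80411970 to 80447625, minus strand), also called Sfrp3, was the only member with a mean below 10 CPM in every population. It reached 16.7 CPM in CD200R1+ non-MRU of mouse 6, while the other 4 libraries of that population held 3.71, 1.78, 4.47 and 0.907 CPM. CD200+ non-MRU lay at 0.735 to 1.33 CPM, and the MRU populations at 0 to 0.874 and 0 to 0.888 CPM, from 0 to 12 counts a library. CD200R1+ non-MRU were 22.5-fold above double-positive MRU (log2 fold change -4.49 for the latter, SE 0.91, adjusted p = 0.000334) and 16.2-fold above remaining MRU (log2 -4.02, SE 0.89, adjusted p = 0.000777). They were 5.18-fold above CD200+ non-MRU (log2 -2.37, SE 0.80, adjusted p = 0.0163). Without the CD200R1+ non-MRU library of mouse 6 these log2 values were -3.48, -3.01 and -1.36, and the last no longer passed (adjusted p = 0.144). It also missed the threshold with the mouse as a block (log2 -1.82, adjusted p = 0.0527), within a range of 0.00788 to 0.144 over all alternatives. Without double-positive MRU of mouse 6 the first was -5.99, and without remaining MRU of mouse 5 the second was -4.80.

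Against CD200+ non-MRU, the log2 value of Frzb in double-positive MRU was -2.12 (SE 0.89, adjusted p = 0.0556). It passed with the mouse as a block (log2 -2.68, adjusted p = 0.0171), in DESeq2 (-2.16, 0.0346), with those 10 libraries alone (-2.08, 0.0272) and without double-positive MRU of mouse 6 (-3.61, 0.00677), within a range of 0.00677 to 0.127. Remaining MRU against CD200+ non-MRU had a log2 value of -1.65 (SE 0.87, adjusted p = 0.132). Within the MRU gate it was -0.47 (SE 0.96, adjusted p = 0.856), from 16 and 21 counts in all.

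Dkk3 (ENSMUSG00000030772, chromosome 7, 112116017 to 112159057, minus strand), a divergent DKK family member, was high in both MRU populations. It stood at 120.3, 111, 61.6, 95.8 and 90.0 CPM in double-positive MRU of mice 2 to 6 and at 95.4, 71.2, 46.7, 54.7 and 60.3 CPM in remaining MRU. The double-positive library was the higher in all 5 mice, but the ranges overlapped and the test did not pass (log2 fold change 0.54, SE 0.29, adjusted p = 0.325, with a range of 0.0876 to 0.517 over all alternatives). CD200R1+ non-MRU had 41.7, 27.3, 74.0, 58.2 and 27.9 CPM and CD200+ non-MRU, the lowest, 12.4, 23.8, 18.1, 22.5 and 7.99 CPM. double-positive MRU were 5.64-fold (log2 SE 0.31, adjusted p = 1.31e-06) and remaining MRU 3.87-fold (log2 SE 0.31, adjusted p = 2.45e-05) above CD200+ non-MRU. CD200R1+ non-MRU were 2.70-fold above CD200+ non-MRU (log2 SE 0.30, adjusted p = 0.000436) and 2.09-fold below double-positive MRU (log2 SE 0.30, adjusted p = 0.00528). Remaining MRU against CD200R1+ non-MRU had a log2 value of 0.52 (SE 0.29, adjusted p = 0.165). It passed without CD200R1+ non-MRU of mouse 4 (log2 0.76, adjusted p = 0.0439) and with library totals alone (0.89, 0.0168), within a range of 0.0168 to 0.346. The nearest profiles were Scn7a (root mean square difference 0.31), Ctdspl (0.31) and Lhfp (0.31).

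**Figure D2:**
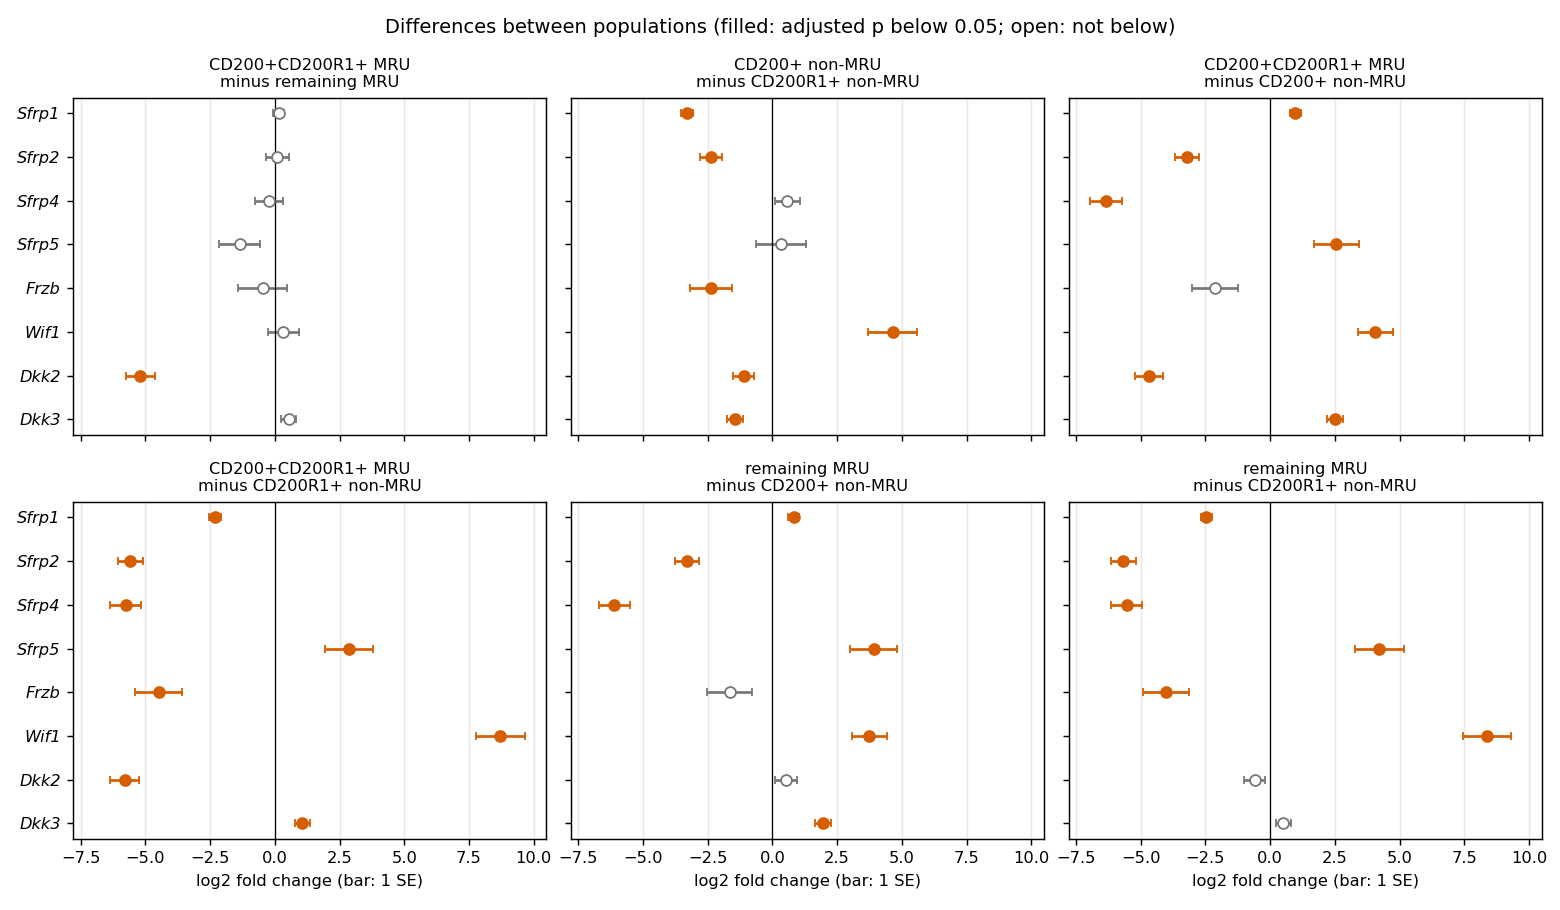
Log2 fold changes of the 8 genes in the 6 comparisons, first population minus second, with bars of 1 SE, filled where the adjusted p was below 0.05. Only Dkk2 is filled within the MRU gate, at -5.20, whereas all 8 genes are filled between double-positive MRU and CD200R1+ non-MRU.

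Counted by comparison, 1 of the 8 genes was lower and none higher in double-positive than in remaining MRU, where 8.26% of all 17236 genes tested passed, 1.62% higher and 6.64% lower. CD200+ against CD200R1+ non-MRU had 1 member higher and 5 lower, on a background of 52.5% (23.8% higher, 28.6% lower). Double-positive MRU against CD200+ non-MRU had 4 higher and 3 lower, on a background of 48.5% (23.9% and 24.6%). Against CD200R1+ non-MRU they had 3 higher and 5 lower, on a background of 46.8% (22.8% and 24%). For remaining MRU, 4 were higher and 2 lower than in CD200+ non-MRU, on 44.1% (24.1% and 20.1%), and 2 were higher and 4 lower than in CD200R1+ non-MRU, on 44.1% (22.4% and 21.6%). The median log2 fold change of the 8 was -0.07, -1.27, -0.57, -3.40, 0.67 and -1.53 in that order, where the medians of all genes lay between -0.06 and 0.02. These comparisons share populations, so their counts are not independent of one another.

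Scaling bears on the 3 comparisons with CD200R1+ non-MRU. With library totals alone, the median gene shifted on the log2 scale from -0.056 to 0.365 for CD200+ non-MRU, from 0.008 to 0.431 for double-positive MRU and from 0.025 to 0.407 for remaining MRU. Higher genes then made up 69.2%, 73.4% and 74.6% of calls over all genes, in place of 45.4%, 48.7% and 50.9%. No called direction among the 8 genes changed with it.

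Levels of different genes were compared per kilobase of exon. Wif1 made up 60.4 ± 12.2% (SD, n = 5) of the summed CPM per kilobase of the 8 genes in double-positive MRU and 59.5 ± 9.14% in remaining MRU. Dkk3 followed with 26.4 ± 9.43% and 20.1 ± 5.27%. In CD200+ non-MRU, Sfrp4 made up 69.2 ± 7.67% and Sfrp2 20.6 ± 7.92%. In CD200R1+ non-MRU, Sfrp2 led with 53.7 ± 14.9%, followed by Sfrp4 with 25.8 ± 9.74% and Sfrp1 with 13.1 ± 5.99%. The sum itself was 118 ± 45.9 CPM per kilobase in double-positive MRU, 99.2 ± 24.3 in remaining MRU, and outside the gate 148 ± 42.8 in CD200+ cells and 285 ± 113 in CD200R1+ cells.

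**Figure D3:**
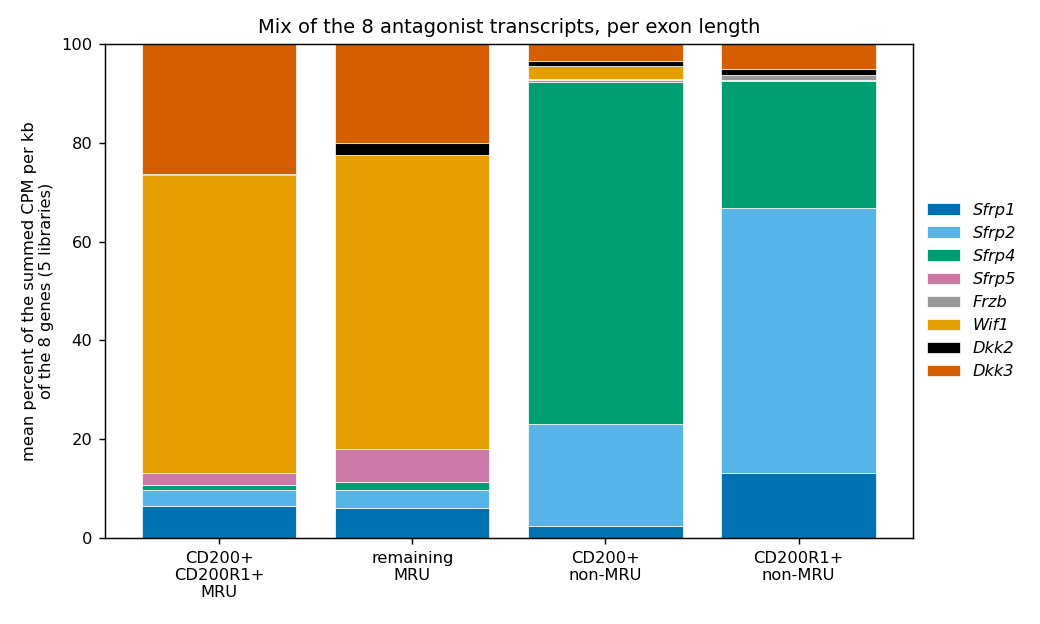
Mean percentage of each gene in the summed CPM per kilobase of exon of the 8 antagonists, 5 libraries a population. Wif1 takes 60.4% and 59.5% of the MRU bars, Sfrp4 69.2% of the CD200+ non-MRU bar and Sfrp2 53.7% of the CD200R1+ non-MRU bar.

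Ligands and receptors of the pathway were examined in the same fit. Of 19 Wnt ligand genes, 11 were tested, and none passed within the MRU gate, where 8.26% of all genes did. Between the non-MRU populations 4 of the 11 were higher and 3 lower in CD200+ cells, where 23.8% and 28.6% of all genes were. In double-positive MRU against CD200+ non-MRU 2 were higher and 2 lower, with 23.9% and 24.6% over all genes. Between the non-MRU populations the calls included Wnt5b, 12.2-fold higher (adjusted p = 5.22e-07), and Wnt2, 3.63-fold lower (adjusted p = 0.000905). Wnt2 stood at 164 ± 97.1 CPM in CD200R1+ non-MRU, 45.1 ± 20.9 in CD200+ non-MRU and 1.87 ± 0.823 in double-positive MRU. Wnt10a had the opposite order, with 35.1 ± 10.3 CPM in double-positive and 23.0 ± 5.62 in remaining MRU, against 4.22 ± 1.45 for CD200+ and 0.744 ± 0.635 for CD200R1+ cells outside the gate.

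All 15 genes of the Frizzled, LRP, ROR and RYK receptor list were tested. Within the MRU gate 2 were higher and 1 lower in double-positive MRU, with 1.62% and 6.64% over all genes. Fzd4, the lower, stood at 2.47 ± 1.20 against 28.2 ± 3.03 CPM, 11.4-fold (adjusted p = 3.31e-07), and Fzd7 at 91.0 ± 10.3 against 46.8 ± 7.96 CPM, 1.94-fold higher (adjusted p = 0.0432). Endothelial, pericyte and adipocyte marker sums differed in the same direction as Fzd4, and the part of these cells in it was not tested. Against CD200+ non-MRU, 14 of the 15 were higher and 1 lower in double-positive MRU, and 13 were higher and none lower in remaining MRU. Over all genes, 23.9% were higher and 24.6% lower in the first of these comparisons, and 24.1% and 20.1% in the second. Against CD200R1+ non-MRU, 4 of the 15 were higher and 5 lower in double-positive MRU, with 22.8% and 24% over all genes. For remaining MRU 5 were higher and 5 lower, with 22.4% and 21.6%. Between the non-MRU populations 1 was higher and 12 lower in CD200+ cells, with 23.8% and 28.6%. The DKK receptor Kremen1 and the coreceptor Lrp6 were lowest in CD200+ non-MRU, at 12.7 ± 3.08 and 34.6 ± 7.59 CPM, and stood at 60.3 ± 16.8 and 107.5 ± 28.6 CPM in CD200R1+ non-MRU. The levels in double-positive MRU, 49.5 ± 8.38 and 88.9 ± 1.404 CPM, were not separated from those of CD200R1+ non-MRU (adjusted p = 0.223 and 0.194 in edgeR). Remaining MRU, at 38.2 ± 3.61 and 70.5 ± 10.9 CPM, were 1.58-fold and 1.53-fold below CD200R1+ non-MRU (adjusted p = 0.00673 and 0.00543 in edgeR).

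Other extracellular or secretory-pathway Wnt antagonists numbered 13, of which 8 were tested. Dkk4, Sost, Notum, Cer1 and Draxin were not, with at most 15 counts over the 5 libraries of any population. Within the MRU gate only Igfbp4, which encodes an IGF-binding protein, passed, 1.85-fold lower in double-positive MRU (adjusted p = 0.000824). Of all genes tested, 8.26% passed there, 6.64% being lower and 1.62% higher. Sostdc1 shared the gate of Wif1, with 59.8 ± 15.2 and 51.5 ± 19.4 CPM in the MRU populations against 3.17 ± 1.84 and 0.680 ± 0.886 in CD200+ and CD200R1+ non-MRU. Dkkl1 was highest in CD200+ non-MRU, at 105 ± 18.2 CPM, 119-fold above CD200R1+ non-MRU (adjusted p = 3.17e-12). Trabd2b, a Wnt-inactivating metalloprotease gene, was highest in CD200R1+ non-MRU at 77.5 ± 12.7 CPM.

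R-spondins amplify Wnt signalling through LGR receptors by removing the ligases ZNRF3 and RNF43. Of 9 genes on that list 8 were tested. In double-positive MRU against CD200R1+ non-MRU 5 were higher and 3 lower, where 22.8% and 24% of all genes were, with Lgr6 93.6-fold higher (adjusted p = 6.45e-13), Rnf43 52.4-fold (adjusted p = 5.27e-09) and Lgr4 8.89-fold (adjusted p = 1.02e-09). The R-spondin genes themselves had lower means in double-positive MRU. Rspo1 stood at 0.944 against 11.6 ± 11.8 CPM, Rspo3 at 0.203 against 4.23 ± 3.92 and Rspo4 at 0.181 against 11.7 ± 8.27. Of 16 Wnt target and feedback genes, 14 were tested and none passed within the MRU gate, where 8.26% of all genes did. In double-positive MRU against CD200+ non-MRU 8 were higher and 2 lower, where 23.9% and 24.6% of all genes were, including Nkd2, 6.11-fold higher (adjusted p = 4.29e-08), and Lgr5, 11.2-fold higher (adjusted p = 8.29e-07). Against CD200R1+ non-MRU 6 of the 14 were higher and 5 lower in double-positive MRU, where 22.8% and 24% of all genes were. The stem cell surface gene Cd44 was 4.48-fold lower in CD200+ than in CD200R1+ non-MRU (adjusted p = 1.64e-09).

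**Figure D4:**
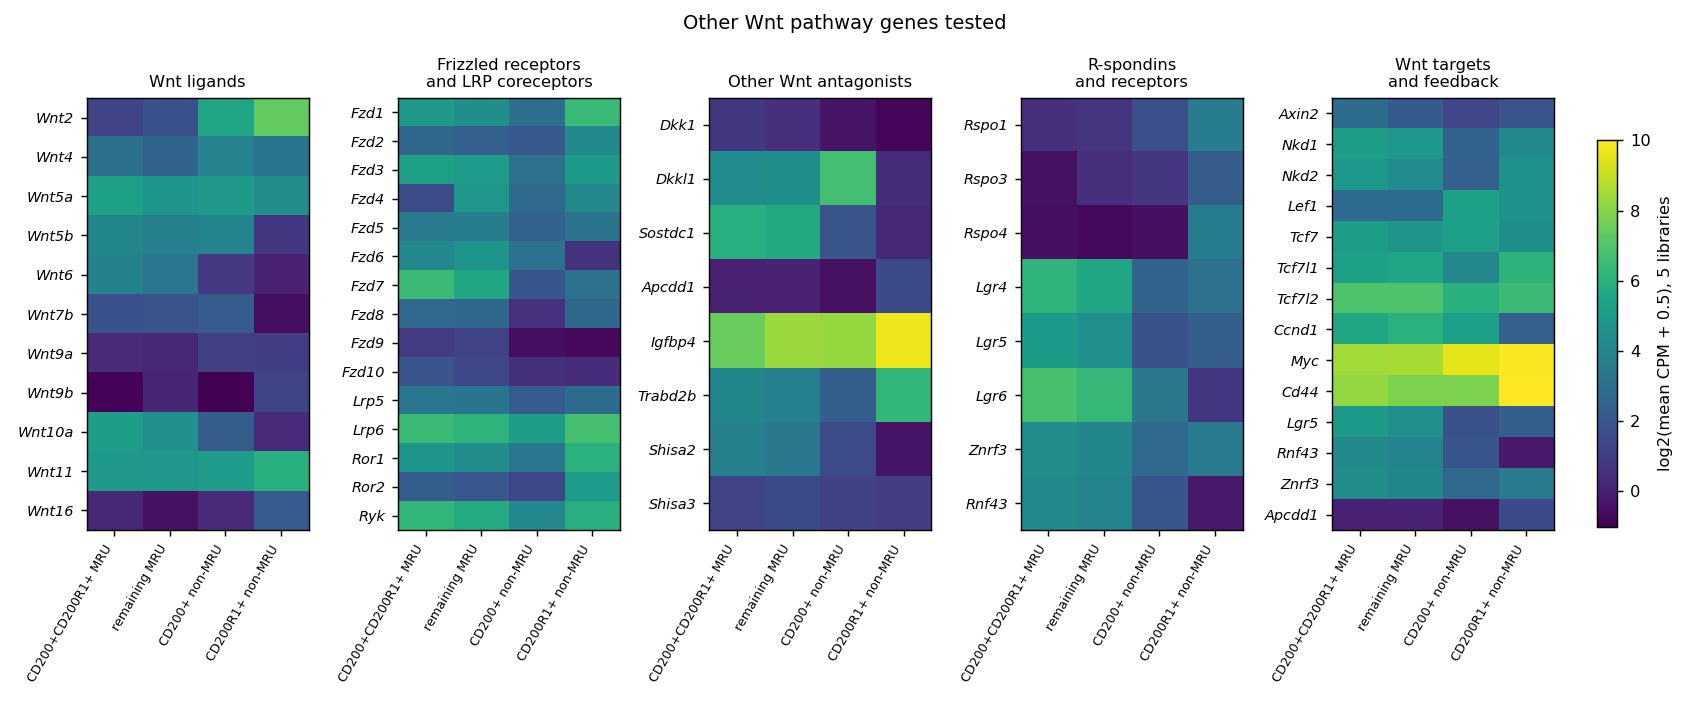
Mean level of the tested Wnt ligand, receptor, antagonist, R-spondin and target genes in each population, as log2 of mean CPM plus 0.5 over 5 libraries. Wnt2 is brightest in CD200R1+ non-MRU (164 CPM) and Sostdc1 in the MRU populations (59.8 and 51.5 CPM).

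Mice differed in a way that crossed populations. Sfrp2 was lowest in mouse 6 in all 4 populations, and Dkk2 was lowest in mouse 6 in 3 of 4. Wif1 was highest in mouse 6 in both MRU populations, whereas the CD200+ non-MRU library of that mouse was the one with no Wif1 count. Frzb was highest in mouse 6 in 2 populations and lowest in mouse 5 in 3 of 4, and Sfrp4 was lowest in mouse 4 in 3 of 4. In CD200+ non-MRU the fibroblast marker sum was also lowest in mouse 6 (6249 CPM), but in CD200R1+ non-MRU it was 70483 CPM in that mouse, the second highest value. These rankings were chosen after the values were seen and were not tested.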

How the data were processed

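RNA of 20 sorted libraries went through a SMART-Seq V4 kit, per the labels' protocols. The deposited counts were raw whole reads per Ensembl gene and library, per the file headers. Cutadapt, STAR 2.4.2a, HTSeq, DESeq2 and build GRCm38 are named in the submitters' processing notes. Annotation release, strand setting and parameters: not given in the sources used here. Another 20 per-sample columns, normalized by the authors, were not used.

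All results were computed from the counts. In edgeR 4.0.16 (R 4.3.3), filterByExpr left 17236 of 46603 genes, and libraries were scaled by TMM. One quasi-likelihood model of population was fitted to 20 libraries. P-values were adjusted by Benjamini-Hochberg across the genes tested (threshold 0.05), and a standard error is the log2 fold change divided by the root of its F statistic. No row lacked a gene. Levels are TMM-scaled CPM, and exon lengths and places are from GENCODE M21 (GRCm38). Profiles were compared as log2(CPM + 0.5), each gene centred on its mean, among genes of at least 10 CPM in a population and without predicted genes. The 3 nearest genes are named, and up to 3 called genes of at least 10 CPM per pathway list and comparison, by smallest adjusted p. Other names, such as second examples of a list or genes in a count below 6, were chosen after their values were seen. The members and lists were chosen with earlier results of these data known.

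The labels tie each number to 1 mouse, so numbers pair libraries. Deviations of the same mouse correlated at 0.166 to 0.311 within the MRU gate and at 0.012 to 0.251 in the other comparisons. Those of different mice correlated at -0.181 to 0.0889 within the gate and at -0.207 to 0.192 in the others, so only within the gate were the ranges apart. Replicate libraries were compared in 40 pairs, and their chi-square per gene of 12.0 to 83.2 showed no library deposited more than once. The floor of 3 counts covers counting error only, whereas the standard errors also take in the spread between libraries. Alternatives were DESeq2 1.42.0, its size factors, library totals alone, no filter, the 10 libraries compared, the mouse as a block and leaving out each library.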

Additional observations from a re-analysis of the deposited data

Results flagged for a closer look

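Of 32 groups of 5 libraries (8 genes in 4 populations), 5 had a library far from the other 4, where chance gives about 1 in 20. Sfrp1 reached 228.1 CPM in CD200R1+ non-MRU of mouse 4, against 129.6 in the next library. That is the library with about 10% of its cells from mouse 3, which itself had 129.6 CPM. Sfrp5 stood at 2.72 CPM in CD200R1+ non-MRU of mouse 3, where the next library had 0.407. Its basal marker sum was 159.7 CPM, and the library of mouse 6, with 0.407 CPM of Sfrp5, had a sum of 153.2 CPM. Frzb stood at 16.67 CPM in CD200R1+ non-MRU of mouse 6, against 4.47 in the next library, and at 0.874 CPM (12 counts) in double-positive MRU of the same mouse, against 0.151 (2 counts). Dkk2 stood at 0.0729 CPM, a single count, in double-positive MRU of mouse 6, where the other 4 libraries had 3 or 4 counts. All of these counts lay near the floor of 3 counts, so this flag carries little weight.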

How the results depend on the processing

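No call among the 8 genes changed direction under any alternative. Of 765 recomputed gene values, 753 stayed on the same side of the threshold, 6 lost a call and 6 gained one, all of Frzb, Dkk2 or Dkk3, as given with those genes. The number of the 8 that passed ranged, over fits leaving out 1 library, from 1 to 1 within the MRU gate, 5 to 6 between the non-MRU populations, 7 to 8 for double-positive MRU against CD200+ non-MRU, 8 to 8 against CD200R1+ non-MRU, and for remaining MRU 6 to 6 and 6 to 7. With the mouse as replicate block, 5 genes passed between the non-MRU populations and 8 between double-positive MRU and CD200+ non-MRU, both through Frzb, and no other call among the 8 changed. Within the MRU gate 2546 genes of the whole table passed with the 10 MRU libraries alone, in place of 1424, and the cause was not tested. Low counts limit Frzb in MRU and Sfrp5 in non-MRU. With only the 10 libraries compared, 3 values could not be fitted because the gene failed the filter: Frzb within the MRU gate, Sfrp5 between the non-MRU populations and Dkk2 in double-positive MRU against CD200+ non-MRU.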
